A study of Mus musculus with 8 samples.

Results

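Apolipoproteins are the proteins carried on lipoprotein particles, and the 10 genes described here encode those associated with the particles that the intestine makes or receives: Apoa1, Apoa2, Apoa4, Apoa5, Apob, Apoc1, Apoc2, Apoc3, Apoe and Apom. Every probe set annotated with exactly 1 gene symbol, that symbol being 1 of the 10, was taken, which gave 16 of the 45101 probe sets on the array, for 10 of the 18194 genes so named. The samples were small intestines of mouse fetuses at 18.5 days post coitum (dpc), 4 from knockout (KO) and 4 from wild-type (WT) animals, each hybridised to 1 Affymetrix MOE430 2.0 array. The KO intestines lacked Plagl2, which encodes a PLAG family transcription factor with zinc fingers, and the labels name no other allele or treatment. The labels used here give no strain, litter, sex or deleted part of the gene, so a p-value reflects the spread of these 8 samples alone. The extraction text attached to all 8 samples calls the tissue wild-type, while the titles and the design give 4 KO samples, and groups were taken from the titles.

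An enterocyte packs dietary fat into chylomicrons, each built on a single molecule of apolipoprotein B in its short, mRNA-edited form, and passes them into the lymph. Apolipoproteins A-I and A-IV are added on the way out of the cell, and the C apolipoproteins and apolipoprotein E set how fast lipase strips the particle in the circulation and how its remnant is taken up by the liver. Apolipoproteins A-I, A-II and M are carried on high-density lipoprotein (HDL), which the intestine makes alongside the liver. Mouse Apoa1, Apoc3, Apoa4 and Apoa5 lie in 1 cluster on chromosome 9, and Apoc2, Apoc1 and Apoe in another on chromosome 7.

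Values are the authors' scaled signal intensities, on a linear scale. Of the 16 probe sets, 15 were bright enough to test, and they represent 9 of the 10 genes. Differences are KO minus WT on the log2(signal + 16) scale from a limma fit across 27022 probe sets, and calls were made where the Benjamini-Hochberg adjusted p was under 0.05. The apolipoproteins fell into 3 kinds. Apoa2 was higher in KO intestines, by about 22.2-fold in mean signal. Apoc1 and Apom were lower in KO intestines, by about 4-fold. The remaining 6 tested genes, Apoa1, Apoa4, Apob, Apoc2, Apoc3 and Apoe, were not called. Of the tested genes, 1 of 9 was thus higher and 2 of 9 were lower, together 33.3%, while 15.1% of all 12838 genes tested were called (6.60% higher and 8.50% lower). By probe set, 1 of 15 was higher and 3 were lower (26.7%), beside 12.0% of all 27022 (5.28% higher and 6.70% lower). The median difference of the 9 genes was -0.15, against 0.03 for all genes, and their median size of difference was 0.3, against 0.22. In 4 of the 15 probe sets (26.7%) the ranges of KO and WT signals did not overlap, beside 17.0% of all probe sets tested. These are bulk tissue values, in which fewer cells of a type and less RNA per cell cannot be told apart.

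**Figure D1:**
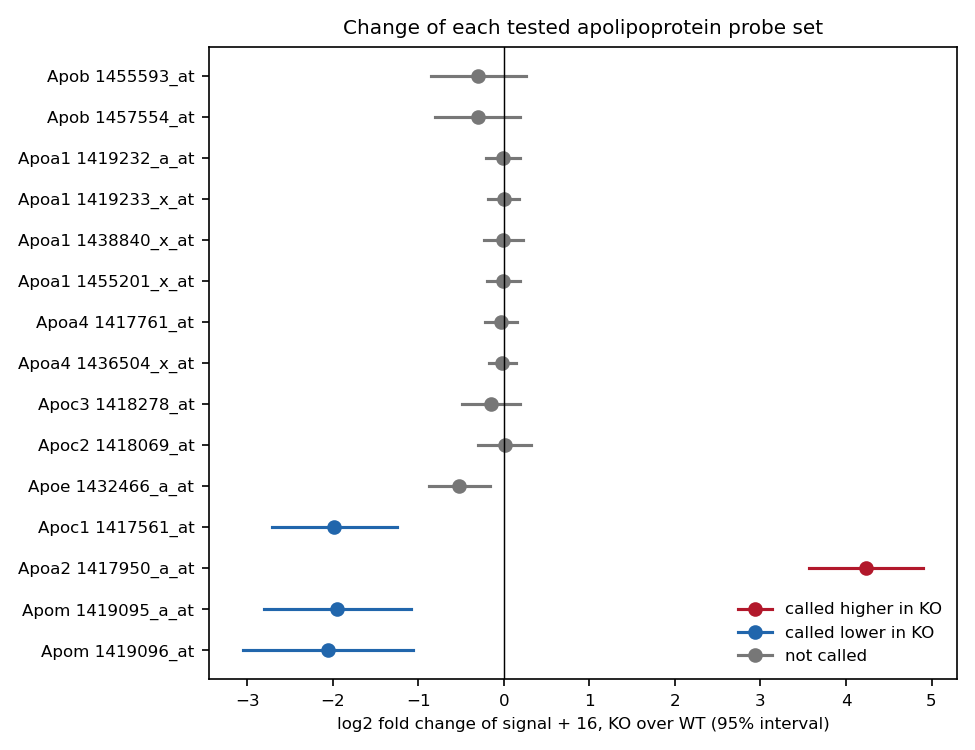
Difference between KO and WT intestines (KO over WT, log2 of signal + 16, horizontal axis) for the 15 tested apolipoprotein probe sets, with bars giving the 95% interval, n = 4 arrays a group. Red marks those called higher in KO, blue those called lower and grey those not called. Apoa2 lies at 4.23, Apoc1 and both Apom probe sets lie between -2.05 and -1.95, and the others lie between -0.52 and 0.01.

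Some properties of the arrays bear on these values. The Plagl2 probe set read 3, 6, 5 and 11 in KO intestines and 824, 817, 697 and 796 in WT intestines (log2 difference -5.18, adjusted p = 2.42e-09 by limma). On the main axis of variation between arrays (44.3% of the variance), WT replicate 3 lay at -21.9, while the other WT arrays lay between -44.7 and -43.3 and the KO arrays between 35.7 and 40.7. KO replicate 4 was the highest of the 8 arrays for 10 of 13 measured hepatocyte markers, and its albumin (Alb) signal was 4646, against 4 to 656 in the other KO intestines and 15 to 122 in WT intestines. The ratio of 3′ to 5′ control signals, a measure of RNA quality and labelling written 3′/5′ ratio here, was higher in every KO array (log2 0.017 to 0.098) than in any WT array (-0.055 to 0.007). The ratio and genotype thus cannot be well told apart. A call lost when the ratio entered the model does not show which of them the difference went with. Xist, transcribed from the inactive X chromosome, read 1828 and 1410 in KO replicates 2 and 3 and at most 47 elsewhere. The Y chromosome genes Eif2s3y, Kdm5d and Uty read 562 to 770, 154 to 178 and 211 to 257 in WT intestines. In KO intestines they spanned 3 to 642, 0 to 161 and 1 to 181. By these genes every WT sample read as male and the KO group was mixed, so the groups differed in sex make-up.

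Apoa2 encodes apolipoprotein A-II, the second main protein of HDL after apolipoprotein A-I. Apom encodes a lipocalin that rides on HDL and carries sphingosine-1-phosphate. Their upstream sequences are shown because they are the called genes with an entry among the RefSeq promoters (build GRCm38.p6), beside that of Apoa1, the HDL gene that was not called. Each window is the 250 bases before an annotated transcript start, given 5′ to 3′ on the gene's strand, and capitals mark the motif matches named after them. RefSeq lists 2 starts for Apoa2, chr1:171221314-171221563 on the plus strand before the gene and chr1:171224804-171225053 inside it. The Apom window is chr17:35131802-35132051 on the minus strand, and that of Apoa1 is chr9:46228380-46228629 on the plus strand.
Apoa2, outer start: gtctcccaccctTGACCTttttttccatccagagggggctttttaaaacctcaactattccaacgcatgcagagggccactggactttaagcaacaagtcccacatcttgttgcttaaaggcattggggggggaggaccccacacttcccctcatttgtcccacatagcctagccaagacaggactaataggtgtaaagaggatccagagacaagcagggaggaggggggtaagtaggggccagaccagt
Apoa2, inner start: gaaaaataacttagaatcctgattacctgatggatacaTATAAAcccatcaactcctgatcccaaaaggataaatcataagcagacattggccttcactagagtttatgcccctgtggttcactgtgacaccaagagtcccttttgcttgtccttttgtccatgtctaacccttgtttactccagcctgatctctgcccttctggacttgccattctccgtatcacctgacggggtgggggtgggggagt
Apom: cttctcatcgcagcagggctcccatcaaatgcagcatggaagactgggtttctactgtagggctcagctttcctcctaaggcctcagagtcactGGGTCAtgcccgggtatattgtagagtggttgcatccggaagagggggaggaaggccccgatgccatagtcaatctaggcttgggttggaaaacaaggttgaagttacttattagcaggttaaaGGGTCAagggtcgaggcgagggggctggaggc
Apoa1: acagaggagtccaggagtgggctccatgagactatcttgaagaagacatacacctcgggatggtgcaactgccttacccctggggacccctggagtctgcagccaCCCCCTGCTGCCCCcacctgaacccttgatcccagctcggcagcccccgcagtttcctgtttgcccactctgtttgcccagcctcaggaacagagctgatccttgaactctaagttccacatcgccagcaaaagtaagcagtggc

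Both strands were searched for 6 motifs. They were the nuclear receptor half-sites AGGTCA and GGGTCA (present in 14% and 11.6% of all 32851 RefSeq windows of this length), TATAAA (12.4%), the HNF4 element CAAAGTCCA (0.384%), the HNF1 element, GTTAAT and ATTAA with 1 base between them (0.0609%), and the bipartite PLAG element, which is GAGGC or GGGGC, 6 to 8 bases of any kind, then GGG (19.9%). The outer Apoa2 window held 1 AGGTCA, 238 to 233 bases before the start, and the inner window 1 TATAAA, 212 to 207 bases before it. Apom had GGGTCA at 156 to 151 and again at 32 to 27 bases before its start. Apoa1 carried the PLAG element at 145 to 132 bases before its start and no other of the 6. Among the other members, GGGTCA occurred before Apoa5 and Apoe, TATAAA before Apoa5, Apob and Apoe, AGGTCA before Apoc2, and none of the 6 before Apoa4. The HNF4 and HNF1 strings were absent from all 12 windows of the 8 members with an entry. A match of letters is a description of the window and is not a measured site.

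Of the 9 tested member genes, Apoa2 was the 1 that was higher in KO intestines. It read 2033, 1106, 3154 and 2380 in KO intestines, against 110, 136, 50 and 94 in WT intestines. The lowest KO signal was thus far above the highest WT signal, and the groups averaged 2168 ± 849 in KO and 97.5 ± 36.1 in WT (SD, n = 4 each). The log2 difference was 4.23 ± 0.3 (SE, 95% interval 3.57 to 4.9), with an adjusted p of 3.77e-06 by limma. Among all probe sets on an array, Apoa2 ranked 619 to 1984 from the top in KO intestines and 11823 to 20052 in WT intestines. Over 19 other settings of the analysis its difference stayed between 3.73 and 4.52, with adjusted p between 2.61e-06 and 0.000857. It was 4.16 without KO replicate 4, 4.0 without WT replicate 3, and 3.98 when the 3′/5′ ratio entered the model. Beside these 4 KO values, albumin read 656, 4, 32 and 4646 in KO intestines and 15 to 122 in WT intestines, and the mean log2 signal of the hepatocyte markers was 6.53, 5.26, 5.56 and 8.41 in KO and 5.83 to 6.17 in WT intestines. KO replicate 2 was the lowest KO array for Apoa2 and for the hepatocyte markers, KO replicate 3 was the highest for Apoa2 and KO replicate 4 for the hepatocyte markers. Ahsg, for example, read 86 and 453 in KO replicates 1 and 4 and 3 to 13 in WT intestines. Fgg read 100 and 984 in those replicates and 8 to 29 in WT intestines. Fga read 181, 49, 16 and 1161 in KO intestines and 209 to 558 in WT intestines. Fgb read 40, 2, 1 and 809 in KO intestines and 51 to 137 in WT intestines. Fga and Fgb were thus below every WT array in KO replicates 1, 2 and 3. Asgr1 read 1 to 4 on all 8 arrays. The part of hepatocyte RNA in the Apoa2 values was not tested.

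Apoa2 stands at chromosome 1, 171221564 to 171226379 (GRCm38.p6), and by these coordinates its first part, with the outer window shown, lies within the annotated span of Tomm40l, which encodes a mitochondrial import protein. Tomm40l itself averaged 128 in KO and 129 in WT intestines (log2 difference -0.03 ± 0.17 SE, adjusted p = 0.928). Beyond Tomm40l lies Nr1i3, a nuclear receptor gene, at 243 in KO and 236 in WT intestines (0.0 ± 0.18, adjusted p = 0.991). Of the 10 nearest protein-coding genes, 5 on either side of Apoa2, 8 were tested and none was called by limma.

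**Figure D2:**
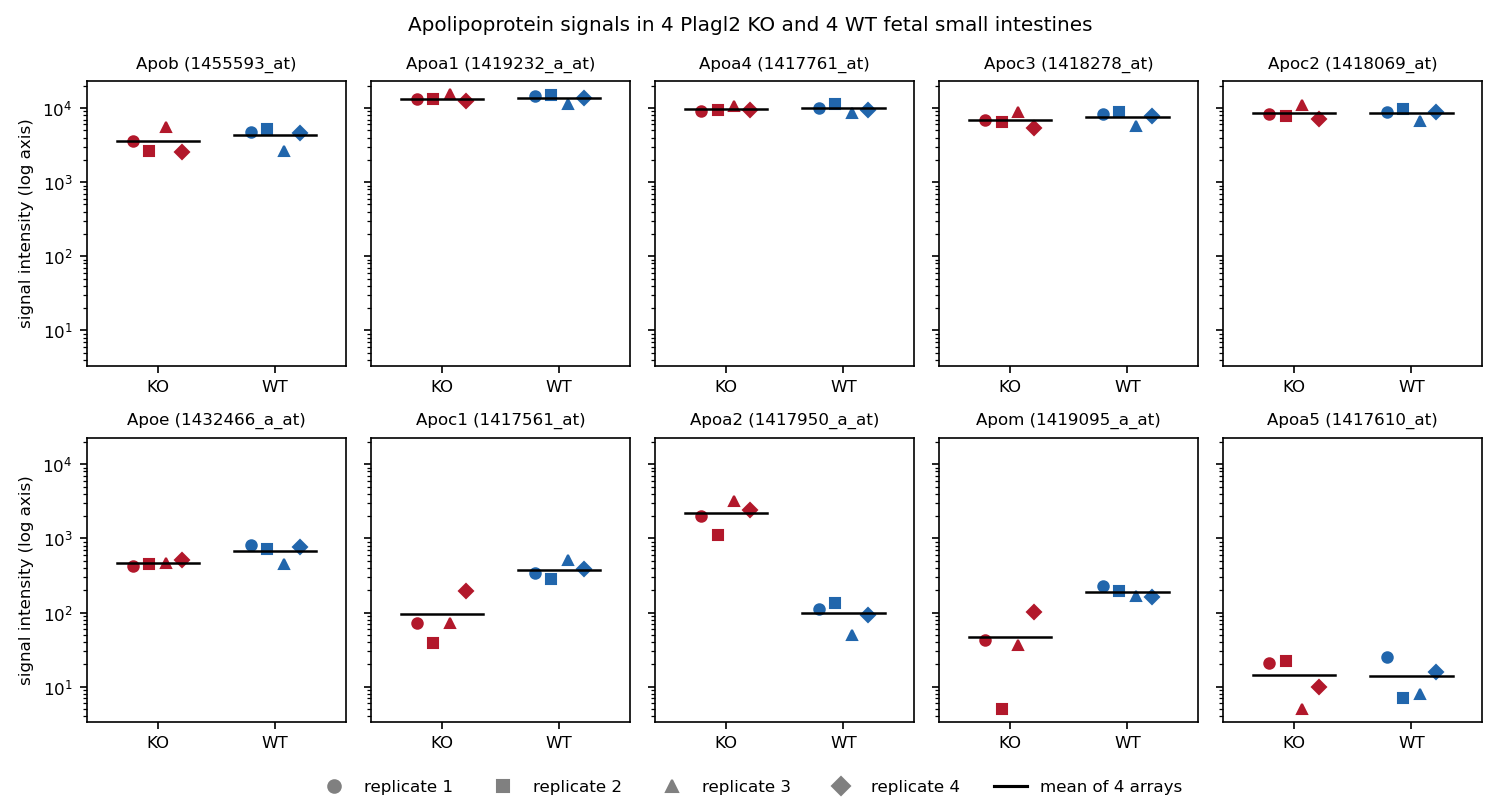
Signal intensity (vertical axis, log scale, as scaled by the authors) of each apolipoprotein gene's brightest probe set, KO arrays in red left of WT arrays in blue, 1 symbol per replicate, with a line at the mean of 4 arrays. Apoa2 separates with 1106 to 3154 in KO and 50 to 136 in WT, Apoc1 and Apom separate in the other direction, and the others overlap.

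Apom was measured by 2 probe sets, and both were lower in KO intestines. The first (1419095_a_at) read 42, 5, 37 and 102 in KO intestines, against 231, 195, 167 and 160 in WT intestines. The second (1419096_at) read 65, 2, 17 and 93 in KO intestines, against 210, 222, 147 and 162 in WT intestines. In both, every KO array lay below every WT array, KO replicate 4 was the highest KO array and KO replicate 2 the lowest. Means were 46.5 ± 40.5 in KO and 188.2 ± 32.3 in WT intestines for the first probe set, and 44.25 ± 42.2 in KO and 185.2 ± 36.4 in WT intestines for the second (SD, n = 4 each). The log2 differences were -1.95 ± 0.39 (SE, 95% interval -2.8 to -1.09, adjusted p = 0.0066) and -2.05 ± 0.45 (-3.05 to -1.06, adjusted p = 0.0111) by limma. The KO signals were near the dim end of the array, so the size depended on the added constant, at -2.56 and -2.93 with an offset of 1 and -1.25 and -1.28 with an offset of 64.

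The Apom call rested on some choices. When the 3′/5′ ratio entered the model the differences were -1.79 and -2.38 and neither probe set was called (adjusted p = 0.144 and 0.0891). The ratio itself separated KO from WT arrays, so that model cannot well tell it from genotype. With the Xist signal as a covariate the first was not called (-1.25, adjusted p = 0.0679) while the second was (-1.01, adjusted p = 0.0385). In the 6 arrays without Xist signal both were called, at -1.29 and -1.08 (adjusted p = 0.0179 and 0.0119). The pair of KO arrays with Xist signal were those with the lowest Apom. Without KO replicate 4 the differences were -2.34 and -2.45, and over all 19 settings adjusted p ran from 0.000515 to 0.144 for the first probe set and from 0.00191 to 0.0891 for the second. Of the 10 genes around Apom (chromosome 17, 35128997 to 35131801), 5 were tested and none was called by limma.

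Apoc1 encodes apolipoprotein C-I, a small surface protein that slows lipase and the uptake of remnants. It lies at chromosome 7, 19689480 to 19692659. Its probe set read 72, 39, 72 and 197 in KO intestines, against 338, 282, 507 and 383 in WT intestines. The groups did not overlap, and KO replicate 4 again was the highest KO array. Apoc1 averaged 95 ± 69.8 in KO and 377.5 ± 95.7 in WT intestines (SD, n = 4 each), a mean 3.97 times as high in WT. The log2 difference was -1.98 ± 0.33 (SE, 95% interval -2.71 to -1.25, adjusted p = 0.002 by limma). It was called in 18 of 19 other settings, the exception being the model that held the 3′/5′ ratio (-1.29, adjusted p = 0.143), and adjusted p ran from 2.56e-05 to 0.143. Without KO replicate 4 the difference was -2.36 (adjusted p = 3.9e-05), and without WT replicate 3, in which Apoc1 was highest, it was -1.83 (adjusted p = 0.00542).

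Apoe lies next to Apoc1 (19696244 to 19701310) and encodes the ligand by which remnants bind the LDL receptor family. It read 429, 448, 462 and 510 in KO intestines, against 813, 713, 451 and 756 in WT intestines. The KO arrays were close together, and 3 of the 4 WT arrays lay above all of them, while WT replicate 3 lay among them. The means were 462.2 ± 34.6 in KO and 683.2 ± 160 in WT intestines (SD, n = 4 each), a log2 difference of -0.52 ± 0.16 (SE, 95% interval -0.87 to -0.16) that missed the threshold (adjusted p = 0.0598 by limma). Without WT replicate 3 the difference was -0.7 and was called (adjusted p = 0.000691), and without both WT replicate 3 and KO replicate 4 it was -0.75 (adjusted p = 0.000306). In the other settings it was not called, and over all 19 adjusted p ran from 0.000306 to 0.198. Counted without WT replicate 3, 3 of the 9 tested genes were lower in KO intestines. Calls rose across the whole table in that setting, from 1427 to 2085 probe sets higher and from 1811 to 2161 lower.

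Apoc2, on the other side of Apoc1 (19671579 to 19677941), encodes the cofactor that lipoprotein lipase requires. Its signals were 8283, 7911, 11037 and 7166 in KO intestines and 8816, 9753, 6610 and 8862 in WT intestines, and the 2 ranges overlapped. Means were 8599 ± 1690 in KO and 8510 ± 1340 in WT intestines (SD, n = 4 each). The log2 difference was 0.01 ± 0.14 (SE, adjusted p = 0.974 by limma), and its 95% interval of -0.3 to 0.32 is what these arrays allow.

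The 3 genes of the chromosome 7 cluster thus gave different values, and their ratios within an array were compared in tests chosen after the values had been seen. In KO relative to WT intestines the log2 ratio of Apoc1 to Apoc2 was lower by 1.99 and that of Apoe to Apoc1 was higher by 1.46, with no overlap between groups (exact two-sided permutation p = 0.0286 each, n = 4 each, the smallest that 4 against 4 allows). The ratio of Apoe to Apoc2 differed by -0.53 (exact permutation p = 0.0571). Adjusted over the 6 ratios examined in the 2 clusters, these became 0.0857, 0.0857 and 0.114. None of them passed after adjustment, and since the pairs follow from the single-gene values they add no evidence to those. Of the 11 genes beside or between the 3, 8 were tested, and Relb (1.13 ± 0.29 SE, adjusted p = 0.026) and Bcl3 (0.8 ± 0.22, adjusted p = 0.0353), a subunit and a regulator of NF-kappaB, were higher in KO intestines by limma.

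**Figure D3:**
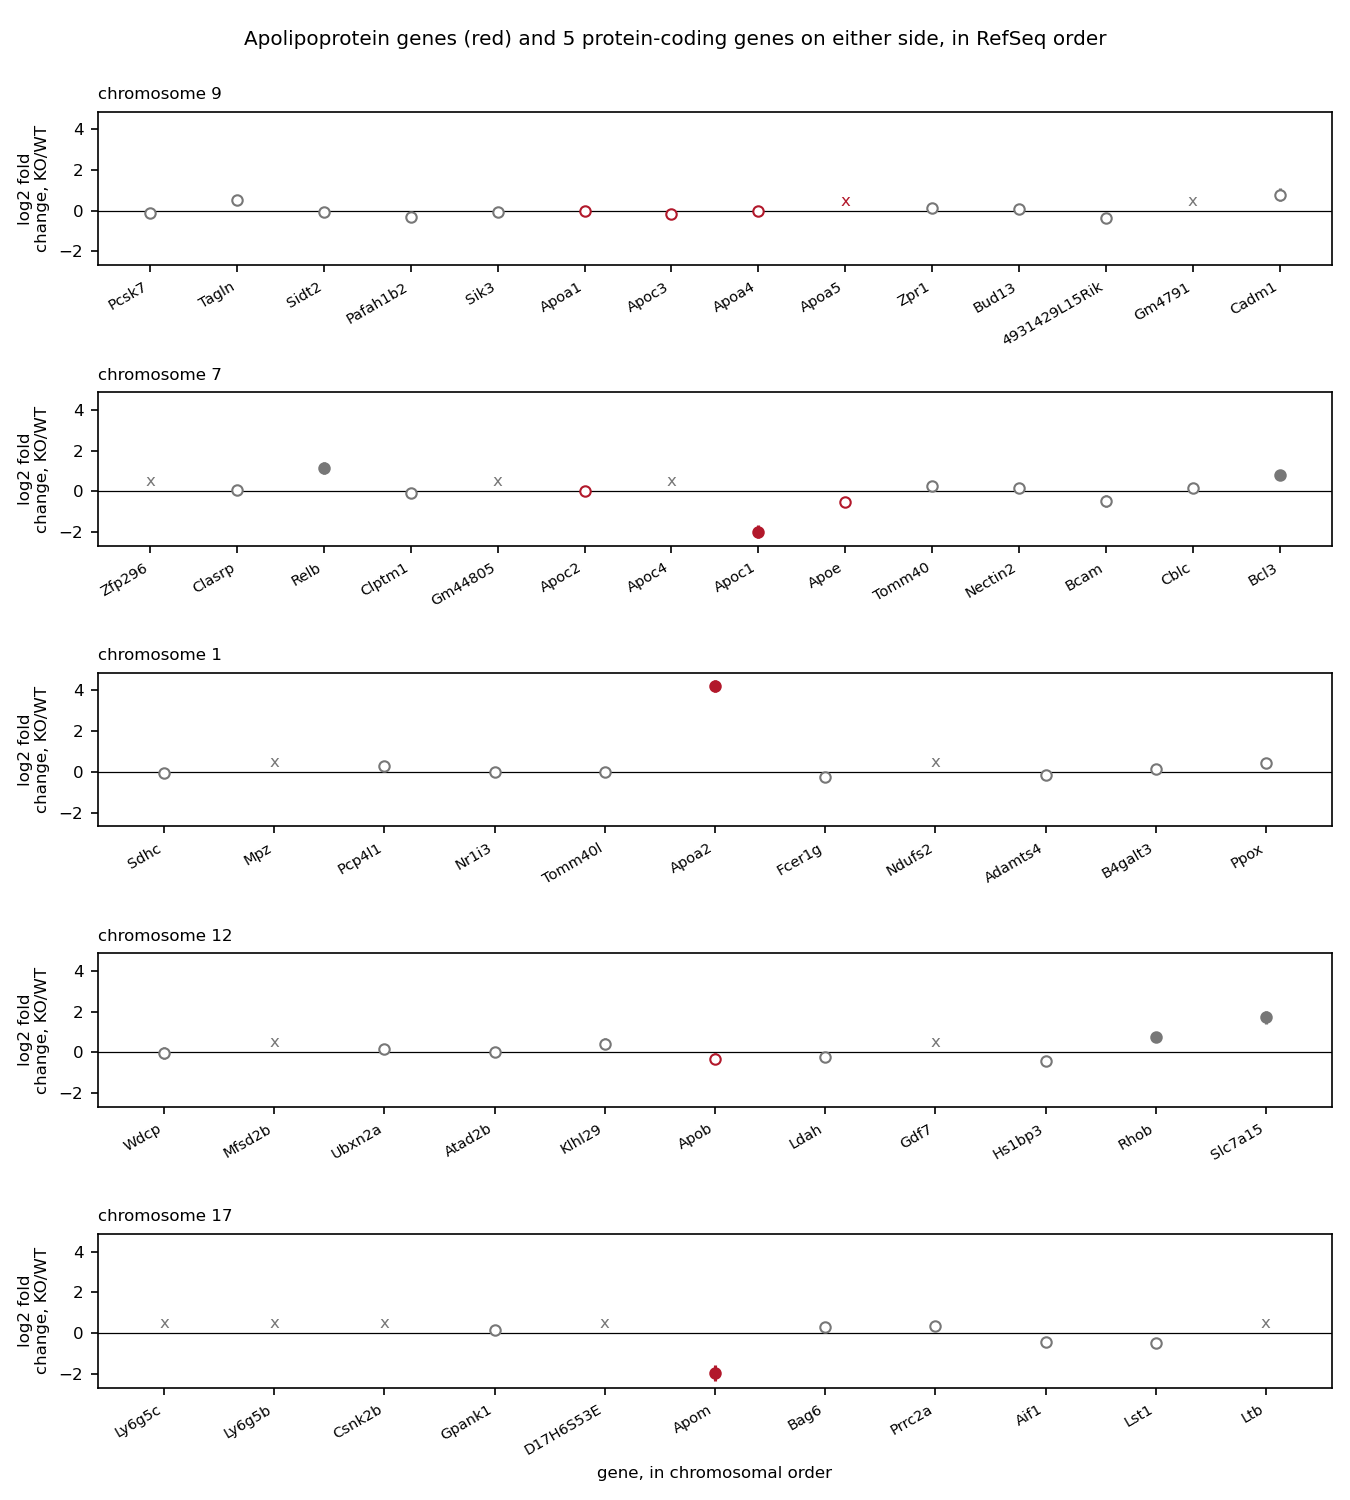
Differences between KO and WT intestines (log2 of signal + 16, vertical axis, error bars standard error, n = 4 arrays a group) of the apolipoprotein genes (red) and their protein-coding neighbours (grey) in chromosomal order (horizontal axis), 1 panel per locus. Filled points are called, open points are not, and crosses mark genes that were not tested. Of the neighbours, 4 are called, Relb and Bcl3 beside the Apoc2, Apoc1 and Apoe cluster and Rhob and Slc7a15 beside Apob, all above 0.

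Apoa1 and Apoa4 encode the A apolipoproteins added to the nascent chylomicron, and A-I is also the main protein of HDL. Apoa1 spans 46228630 to 46230469 and Apoa4 46240844 to 46243458 on chromosome 9. The Apoa1 probe set 1419232_a_at read 13093, 13044, 15256 and 12352 in KO intestines and 14483, 14768, 11424 and 13592 in WT intestines. Both groups covered much the same range, with KO replicate 3 highest and WT replicate 3 lowest. It averaged 13440 ± 1260 in KO and 13570 ± 1510 in WT intestines (SD, n = 4 each), a log2 difference of -0.01 ± 0.09 (SE, 95% interval -0.21 to 0.19, adjusted p = 0.955 by limma). The other 3 Apoa1 probe sets differed by -0.01 to 0.0, with adjusted p between 0.977 and 0.989. Apoa4 (1417761_at) read 9162, 9336, 10554 and 9456 in KO intestines and 10034, 11288, 8566 and 9545 in WT intestines. Its log2 difference was -0.03 ± 0.09 (adjusted p = 0.871), and that of its second probe set was -0.02 ± 0.07 (adjusted p = 0.911).

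These signals lay at the top of the array's range. The highest signal of any probe set was 13093 to 15256 per array. On 5 of the 8 arrays that probe set was the first Apoa1 one, and on the other 3 it was that of Fabp1, a fatty acid binding protein of enterocytes. All 4 Apoa1 and both Apoa4 probe sets were at 50% or more of the highest signal on every array, and the first Apoa1 probe set was at 82.6% of it or more. There were 59 such probe sets in the table, of which 54 were tested. None of the 54 was called by limma, beside 12.0% of all 27022 probe sets tested. At an unadjusted p under 0.05, 1 of the 54 was higher and 2 were lower. The median size of their difference was 0.04 and the largest 0.19. Apoc2 reached 47.8% to 72.3% of the highest signal, Apoc3 38.2% to 59.8% and the brighter Apob probe set 18.0% to 36.7%. Whether bright signals were compressed was not tested, and a p that misses the threshold does not show that levels of Apoa1 or Apoa4 RNA were equal.

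**Figure D4:**
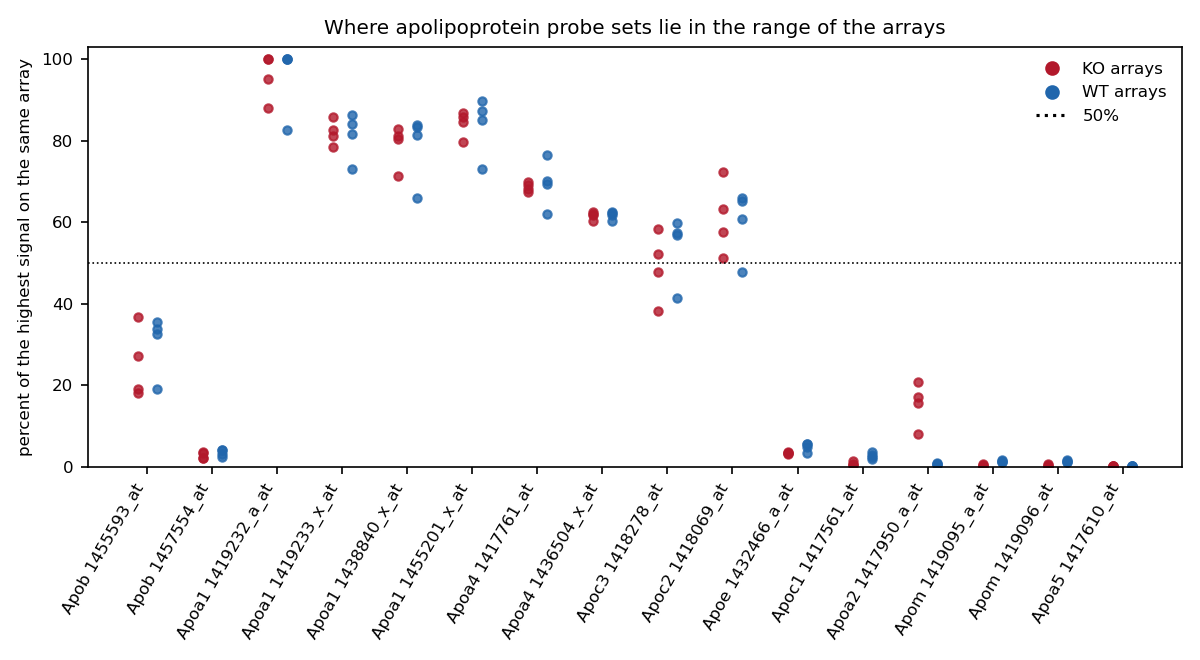
Signal of each apolipoprotein probe set as a percent of the highest signal on the same array (vertical axis), 1 point per array, KO arrays in red left of WT arrays in blue, with a dotted line at 50%. The 6 Apoa1 and Apoa4 probe sets lie above the line on all 8 arrays, those of Apoc2 and Apoc3 lie on both sides of it, and the others lie below it.

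Apoc3, between Apoa1 and Apoa4 on chromosome 9, encodes an inhibitor of lipolysis and of remnant uptake. It read 6819, 6572, 8887 and 5356 in KO intestines and 8245, 8829, 5734 and 7808 in WT intestines, and the groups overlapped. Averages were 6908 ± 1470 in KO and 7654 ± 1350 in WT intestines (SD, n = 4 each), with a log2 difference of -0.15 ± 0.16 (SE, 95% interval -0.49 to 0.19, adjusted p = 0.592 by limma). The ratios within the cluster differed by 0.14 for Apoa1 to Apoc3, 0.02 for Apoa1 to Apoa4 and -0.12 for Apoc3 to Apoa4 (exact permutation p = 0.314, 0.8 and 0.457, n = 4 each, adjusted over the 6 ratios 0.471, 0.8 and 0.549). Apoa5, the fourth gene of the cluster, encodes an activator of lipolysis made in the liver. Its probe set was too dim to test, at 21, 22, 5 and 10 in KO intestines and 25, 7, 8 and 16 in WT intestines (exact permutation p = 0.914, n = 4 each). Of the 10 genes beside this cluster, 9 were tested and none was called by limma.

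Apob, at chromosome 12, 7977629 to 8016839, encodes the scaffold protein of the chylomicron. Its brighter probe set (1455593_at) read 3567, 2618, 5599 and 2519 in KO intestines and 4725, 5241, 2640 and 4604 in WT intestines. KO replicate 3 was the highest of all 8 arrays, WT replicate 3 was just above the lowest pair of KO arrays, and the groups overlapped. Means were 3576 ± 1430 in KO and 4302 ± 1140 in WT intestines (SD, n = 4 each), and the log2 difference was -0.3 ± 0.26 (SE, 95% interval -0.85 to 0.26, adjusted p = 0.515 by limma). The dimmer probe set (1457554_at) gave 387.8 ± 124 in KO and 477.5 ± 123 in WT intestines and also differed by -0.3 (± 0.23, adjusted p = 0.446). Beside Apob on chromosome 12, Rhob, a small GTPase (0.75 ± 0.11, adjusted p = 0.00102), was higher in KO intestines by limma. Slc7a15, a member of a family of amino acid transporters, averaged 77 in KO and 10.5 in WT intestines and was called as higher (adjusted p = 0.00497 by limma). Its WT mean was under the mean signal of 23 that the filter on dim probe sets required, so it was tested through its KO values and no fold is given. Of the 38 neighbours tested around all members, Rhob, Slc7a15, Relb and Bcl3 were called as higher (10.5% of the 38 called, beside 15.1% of all genes) and none as lower. At an unadjusted p under 0.05 there were 7 higher and 3 lower.

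The apolipoprotein probe sets shared a pattern over the arrays within each group. WT replicate 3 was the lowest WT array in 12 of the 15 tested probe sets, against 27.6% of all probe sets tested. It was the highest in 1, Apoc1, against 34.0% of all. KO replicate 3 was the highest KO array in 11 of the 15, against 24.4% of all. KO replicate 4 was the lowest KO array in 7 and the highest in 4, which were Apoc1, Apoe and both Apom probe sets. WT replicate 2 was the highest WT array in 12. For KO replicate 4 and WT replicate 2 the share over all probe sets was not counted. The 4 Apoa1 probe sets, and likewise those of Apoa4, Apob and Apom, measure the same gene and are not independent.

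Marker genes of several cell types were measured on the same arrays, and their part in the apolipoprotein values was not tested. The mean log2 signal of 9 enterocyte markers was 11.73, 11.78, 12.02 and 11.56 in KO intestines and 11.46, 11.59, 11.33 and 11.55 in WT intestines (difference 0.29, exact permutation p = 0.0571, n = 4 each), with KO replicate 3 highest and WT replicate 3 lowest, as for most apolipoproteins. Of these 9, Krt20 (3220 in KO, 526 in WT) and Anpep (3572 in KO, 1567 in WT) were higher in KO intestines and Cdx1 (178 in KO, 374 in WT) was lower. Their log2 differences were 2.55, 1.19 and -1.01. Vil1, Fabp1, Fabp2, Cdh17, Lct and Alpi were not called, at -0.4 (Lct) to 0.28 (Vil1). The list difference thus rested mainly on Krt20 and Anpep. Hepatocyte markers averaged 6.53, 5.26, 5.56 and 8.41 in KO and 5.83, 5.84, 5.93 and 6.17 in WT intestines (difference 0.49, exact permutation p = 0.657, n = 4 each), with summed signals of 5822 to 15615 in KO and 7088 to 8776 in WT intestines, and of the 7 tested, Cps1, also an enzyme of the intestine, was lower. Cps1 alone read 5608 to 6572 in KO and 6547 to 7997 in WT intestines. It made up most of the sum on every array but KO replicate 4, so these sums say little about hepatocyte RNA. Macrophages express Apoe and Apoc1 among other genes. Their 10 markers were lower on average in every KO array (7.2 to 7.76) than in any WT array (7.87 to 8.03), a difference of -0.53 (exact permutation p = 0.0286, n = 4 each). Csf1r (707 in KO, 3752 in WT) and Adgre1 (84.5 in KO, 178 in WT) were called as lower and the other 8 were not, and summed signals were 1849 to 2574 in KO and 4530 to 6104 in WT intestines. Csf1r made up most of that gap, since the other 9 summed to 1186 to 1716 in KO and 1653 to 1824 in WT intestines, and 2 of them, Lyz2 and Mrc1, had the higher mean in KO. The 6 markers of yolk sac endoderm, an embryonic tissue that makes apolipoproteins, averaged 8.27 to 9.58 in KO and 9.96 to 10.37 in WT intestines (difference -1.49, exact permutation p = 0.0286, n = 4 each), with sums of 4832 to 11157 in KO and 13563 to 17573 in WT, and Afp, Ttr, Amn and Lrp2 were called as lower. Lrp2 is a lipoprotein receptor gene as well, and Amn encodes the anchor of the receptor cubilin. Fabp6, a bile acid binding protein of ileal enterocytes, read 321, 4286, 4505 and 131 in KO intestines and 222, 460, 13 and 101 in WT intestines. It was thus high in the KO arrays that carried Xist signal, and it was not called (adjusted p = 0.129 by limma). The other tested ileal markers, Slc51a, Slc51b and Clca4b, had lower means in KO (1150, 248 and 4144) than in WT intestines (1476, 443 and 5652). None of them was called, and Slc10a2 was too dim to test.

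**Figure D5:**
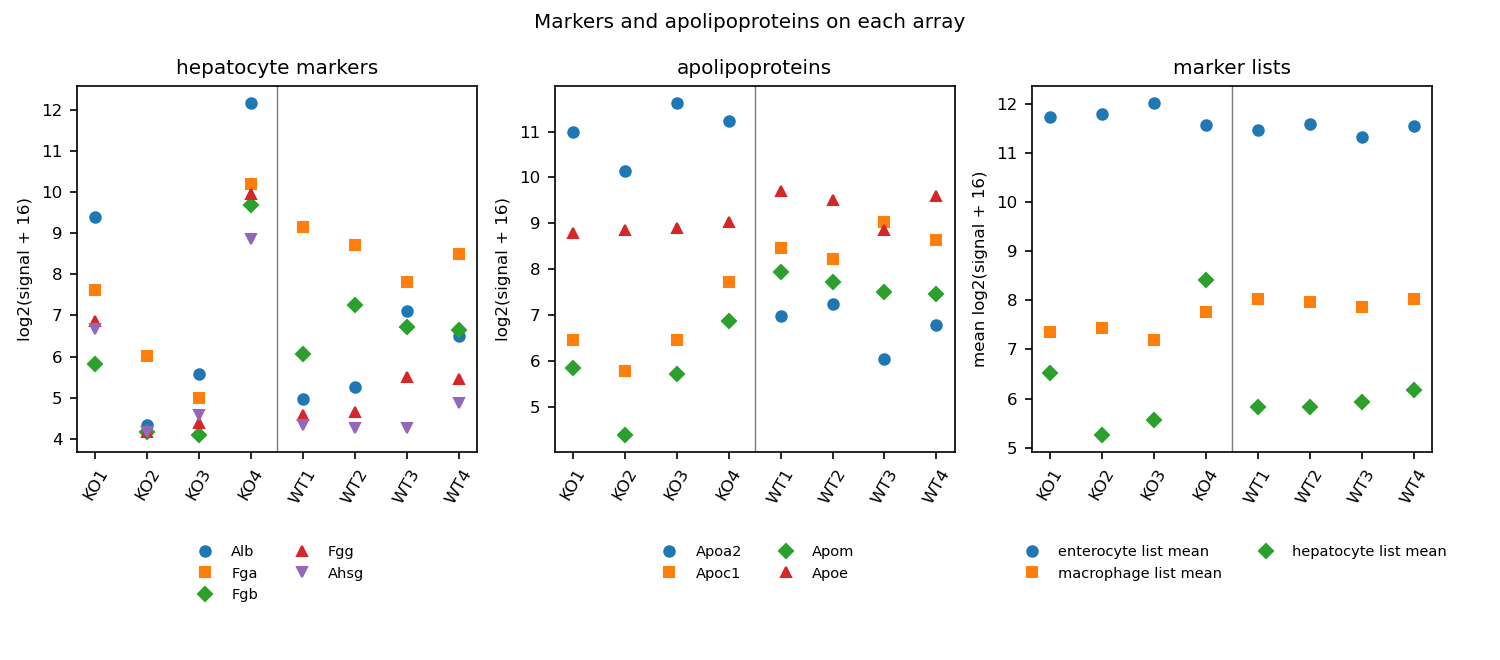
Values on each array as log2(signal + 16) (vertical axes), KO arrays left of WT arrays, for 5 hepatocyte markers (left), 4 apolipoprotein genes (middle) and the means of 3 marker lists (right). The hepatocyte list is highest in KO replicate 4 at 8.41, the macrophage list lies at 7.2 to 7.76 in KO and 7.87 to 8.03 in WT, and Apoa2 is high in all 4 KO arrays.

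Genes that act with the apolipoproteins were counted from lists by role, beside the 15.1% of all genes called. Among 11 genes of Apob lipidation, mRNA editing and export, 1 was higher, Sec24c, a coat protein of vesicles leaving the endoplasmic reticulum (1316 ± 172 in KO, 976 ± 55 in WT, log2 difference 0.42 ± 0.1 SE, adjusted p = 0.0194 by limma). Mttp, which loads lipid onto Apob, read 6600 ± 1270 in KO and 6473 ± 724 in WT intestines (0.02 ± 0.13, adjusted p = 0.955). The editing enzyme Apobec1 (305 in KO, 313 in WT, adjusted p = 0.917) and its partner A1cf (186 in KO, 202 in WT, adjusted p = 0.718) were not called. Of 8 HDL genes, 2 were higher and 1 lower. Abca1, the transporter that lipidates apolipoprotein A-I, averaged 733 ± 200 in KO and 354 ± 47.4 in WT intestines (0.98 ± 0.19, adjusted p = 0.00521). Lipg, an endothelial lipase acting on HDL, was also higher (0.77 ± 0.21, adjusted p = 0.0373), and the transporter Abcg1 was lower (-0.49 ± 0.14, adjusted p = 0.0442). Angptl4, a lipase inhibitor, was the 1 called of 5 lipolysis genes, at 130 ± 28.2 in KO and 54.8 ± 17.5 in WT intestines (1.06 ± 0.21, adjusted p = 0.00532).

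Of 9 genes for receptors of apolipoprotein-bearing particles and their partners, 1 was higher and 2 were lower. Vldlr, a receptor for Apoe, averaged 244 ± 37.8 in KO and 122 ± 7.41 in WT intestines (log2 difference 0.91 ± 0.13 SE, adjusted p = 0.000764 by limma). Lrp2, the endocytic receptor megalin, which binds apolipoprotein M, averaged 7.75 ± 4.19 in KO and 130 ± 60.9 in WT intestines and was called as lower (adjusted p = 0.000202). Its KO signals of 5 to 14 were under the mean signal that the filter on dim probe sets required, so it was tested through its WT values and no fold is given. With the filter at 60%, 1 gene of this list was called as lower. Amn, which anchors the Apoa1 receptor cubilin, averaged 1218 ± 210 in KO and 2710 ± 341 in WT intestines (-1.15 ± 0.13, adjusted p = 0.000126). Among 5 other tested apolipoprotein-named genes, Clu was higher (374 ± 159 in KO, 160 ± 13.5 in WT, 1.05 ± 0.25, adjusted p = 0.0148) and the mitochondrial Apoo was lower (460 ± 24.1 in KO, 638 ± 57.8 in WT, -0.46 ± 0.1, adjusted p = 0.0094).

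Of 21 transcription factors known to act on apolipoprotein genes, 3 were higher and 4 lower (33.3% called). Those higher were the fatty acid receptor gene Ppara (668 ± 182 in KO, 259 ± 33.4 in WT), the sterol response factor gene Srebf1 (1742 ± 482 in KO, 808 ± 96.4 in WT) and the oxysterol receptor gene Nr1h3 (178 ± 13.2 in KO, 98.5 ± 24.7 in WT), with adjusted p of 0.00112, 0.00189 and 0.0094 by limma. Those lower were the corepressor gene Nr0b2 (14.8 ± 9.03 in KO, 246 ± 73.3 in WT, adjusted p = 1.38e-05), the bile acid receptor gene Nr1h4 (558 ± 78.3 in KO, 1198 ± 16.4 in WT, adjusted p = 3.38e-05), Cebpb (441 ± 12.5 in KO, 866 ± 86.7 in WT, adjusted p = 6.29e-05) and Cebpa (500 ± 40.7 in KO, 892 ± 124 in WT, adjusted p = 0.000728). The KO mean of Nr0b2 was under the mean signal of 23 that the filter on dim probe sets required, so Nr0b2 was tested through its WT values. Hnf4a, the nuclear receptor that acts on most genes of the chromosome 9 cluster, averaged 2255 ± 245 in KO and 2108 ± 264 in WT intestines (0.1 ± 0.11, adjusted p = 0.622), and Creb3l3, which acts on Apoa4 and Apoc2, was not called either (2719 in KO, 2876 in WT, adjusted p = 0.763). When the 3′/5′ ratio entered the model, 1 higher and 2 lower genes of the receptor list and 4 lower transcription factors were called. The calls of the other lists and of the higher transcription factors were lost. The small lists also changed elsewhere. The Sec24c list had no call with the replicate block, without an intensity trend, with Xist in the model, in the 6 arrays without Xist signal, or without KO replicate 1, WT replicate 1 or WT replicate 4. The HDL list had none with Xist in the model or in those 6 arrays, and 1 higher and none lower with no filter, with the replicate block, or without KO replicate 1, 2 or 4 or WT replicate 1 or 4. The Angptl4 list had none in the 6 arrays. Among the other apolipoprotein-named genes, the higher call was lost without KO replicate 1 or WT replicate 1, and the lower call with the replicate block, with Xist in the model or in the 6 arrays.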

How the data were processed

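Gene expression was measured in 4 KO and 4 WT fetal mouse small intestines, 1 array each. The deposited table holds 1 signal intensity per probe set on a linear scale, and each array's mean after trimming 2% of values at both ends was 150.05, so the authors' scaling is in the values. The software that made the signals is not given in the sources used here. Detection calls were not used. Per the labels' protocols, a column kit was used for total RNA, which was labelled as cRNA.

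Signals were transformed as log2(signal + 16). Control probe sets (64) and the dimmest 40% by mean were left out. limma 3.58.1 under R 4.3.3 (lmFit, then eBayes with trend) was fitted to the other 27022 with a genotype term alone, and calls were two-sided at a Benjamini-Hochberg adjusted p below 0.05. The brightest tested probe set stood for its gene. Errors of differences are SEs of the fit, and errors of signals are SDs. Single values per array were compared by exact two-sided permutation, for which the smallest possible p is 0.0286. The fit was tested on simulated data. The number of arrays limits the precision.

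Symbols came from the platform annotation (34958 probe sets with 1 symbol, 932 with several, 9211 with none), and 34754 were found in RefSeq by Entrez ID. Promoters are from RefSeq (GRCm38.p6), with entries used for 8 of the 10 members, all but Apoc1 and Apoc3.

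The members, lists and tests were chosen with earlier results of these data known. The rule for named genes took all members, Plagl2, up to 5 called genes of each list by smallest p (or 3 where none passed), called neighbours, and defining markers. Mttp, Apobec1, A1cf, Tomm40l, Nr1i3, Hnf4a and Creb3l3 were added for their role or position after their values were seen. Alternatives were filters of 0% and 60%, quantile normalization, offsets of 1 and 64, no trend, the replicate number as a block, Xist or the 3′/5′ ratio in the model, arrays left out, a threshold of 0.01 and a gene's mean over its probe sets.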

Additional observations from a re-analysis of the deposited data

Results flagged for a closer look

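The outer value of 1 group of apolipoprotein signals stood apart from the rest of its group. The Apoa1 probe set 1419233_x_at read 12591 in KO replicate 3, against 11242, 11144 and 11001 in the other KO intestines, a gap that passed the limit for a group of 4. Of 32 groups of 4 examined, 1 was so marked, and chance marks about 1 in 20.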

How the results depend on the processing

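Each of the 15 tested apolipoprotein probe sets was refitted in 19 settings, giving 285 values, of which 249 kept their direction and their side of the threshold. The call of Apoa2 held in all 19. At an adjusted p under 0.01, 2 member probe sets were called lower in place of 3, since Apom 1419096_at (adjusted p = 0.0111) was lost. The member gene counts were the same with a gene's mean over its probe sets. Where a call below was lost or gained, the cause was not tested. In the model with the 3′/5′ ratio, 471 probe sets in the table were called higher and 919 lower, and 0 member probe sets and 0 member genes were called lower by limma, although 4 of the member probe sets were lower at an unadjusted p under 0.05. Since the ratio separated KO from WT arrays, that model cannot well tell it from genotype. In the model with Xist, 755 in the table were called higher and 1 member gene, Apoc1, was called lower. In the 6 arrays without Xist signal 807 were called higher. Leaving out 1 array at a time gave 876 (without KO replicate 2) to 2085 (without WT replicate 3) called higher, including 920 without WT replicate 1, and 1296 to 2161 called lower.

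Deviations of KO and WT arrays of the same replicate number from their group means correlated at -0.011, -0.046, -0.274 and -0.12, none of them positive. The labels name no pairs, so these correlations cannot show whether the samples were paired. With the replicate block, 751 probe sets were called higher and 1164 lower, while the member counts stayed at 1 higher and 3 lower, with Apoa2 at 4.23 (adjusted p = 0.000408), Apoc1 at -1.98 (0.00335) and Apom at -1.95 (0.0183) and -2.05 (0.0238).

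The sign turned in 30 values, none of them called and none larger than 0.18. Apoc2 was at -0.11 with Xist in the model, -0.18 with the 3′/5′ ratio, -0.13 in the 6 arrays and -0.03 without WT replicate 3 and KO replicate 4. Both Apoa1 1438840_x_at and 1455201_x_at were at 0.04 after quantile normalization, and Apoa4 1436504_x_at was at 0.02 with the 3′/5′ ratio. With 1 array left out, Apoc2 ran from -0.12 to 0.09, the Apoa1 probe sets in the order of the plot from -0.09 to 0.03, -0.06 to 0.05, -0.1 to 0.05 and -0.08 to 0.05, and those of Apoa4 from -0.09 to 0.04 and -0.06 to 0.01.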
